A study of Mus musculus with 2 samples.

Results

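Genes whose products carry the signal of the receptor TLR4 across the macrophage membrane were read in nucleoplasmic RNA. There are 10 of them: the co-receptor genes Cd14 and Ly96, the adaptor genes Myd88, Tirap, Ticam1 and Ticam2, and the kinase family genes Irak1, Irak2, Irak3 and Irak4. They were chosen by symbol, not by any measured value, and each was found among 81881 features of the gene table, of which 55536 were annotated genes. The series holds 2 ribosomal-RNA-depleted total RNA libraries, replicates 1 and 2 of 1 group. The RNA came from the nucleoplasmic fraction of bone-marrow-derived macrophages, primary cells grown from the marrow of C57BL/6J mice. The cells had been given 100 ng/ml lipid A, the lipid anchor of bacterial lipopolysaccharide and the ligand of TLR4, for 90 min. The labels give neither the age nor the sex of the mice, and they tie both libraries to a single donor entry, so part of any spread between replicates may be technical. Replicate 1 started from 1 µg of RNA and replicate 2 from 500 ng. No unstimulated cells, other times or other cell fractions enter the comparisons, so each level is read against the other genes measured beside it and no p-value is given.

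TLR4 does not meet lipid A alone. CD14 passes the lipid to the complex of TLR4 with LY96, also known as MD2, and the receptor then gathers adaptor proteins on its cytoplasmic side. TIRAP brings in MYD88 at the plasma membrane, and TICAM2, also called TRAM, brings in TICAM1, also called TRIF, which leads to type I interferon. MYD88 assembles with IRAK4 and then IRAK1 or IRAK2 into a signalling complex, while IRAK3, also called IRAK-M, lacks that kinase activity and is known as a brake. In macrophages some of these genes, Irak2 and Cd14 among them, are themselves known targets of the pathway.

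The libraries held 22669497 and 14939130 counts, after rounding to whole numbers. TPM is a relative level corrected for transcript length. Features with an effective length under 200 bases took 73.9% of all TPM in replicate 1 and 57.0% in replicate 2, and the median log2 ratio of TPM between the libraries was 0.38, so higher TPM in replicate 2 does not by itself show more of a transcript. All 10 macrophage markers reached 1 TPM in each library, with a summed level of 2411 and 3165 TPM. The summed TPM of 8 T and NK cell markers was 0.03 and 0.04 (6 of 8 were listed at 0 in both libraries), and that of 8 neutrophil markers was 2.87 and 3.53 (4 of 8 at 0). The 5 B cell markers summed to 0.41 and 0.42 TPM, the 6 dendritic cell markers to 2.21 and 3.90, and the 6 stromal and endothelial markers to 3.35 and 4.22. The 6 erythroid and megakaryocyte markers summed to 0.58 and 2.15 TPM, and the 5 mast cell and basophil markers to 0.03 and 0. In the second quantification, a separate transcript table for each library, the macrophage sum was 1637 and 1996 TPM. The T and NK cell sum was 3.54 and 14.4 there, of which Cd3d, listed at 0 in the first, held 3.01 and 13.1, and the stromal and endothelial sum was 6.78 and 18.7, of which Pecam1 held 3.53 and 13.4. The other sums lay between 0.117 and 7.24 TPM. The part of these cells in the results below was not tested.

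Each of the 10 genes reached 1 TPM in replicate 1 and in replicate 2, and they spanned a wide range. Cd14 was far above the rest, Irak2 led the IRAK family, and Ticam1, Tirap and Irak4 were lowest. The median of the 10 mean levels was 13.59 TPM, against 7.74 TPM over 8572 protein-coding genes at 1 TPM or more. Of the 10, 6 reached 10 TPM in each library and 1 reached 100 TPM. Among the 8572 genes those counts were 3226 and 281.

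**Figure D1:**
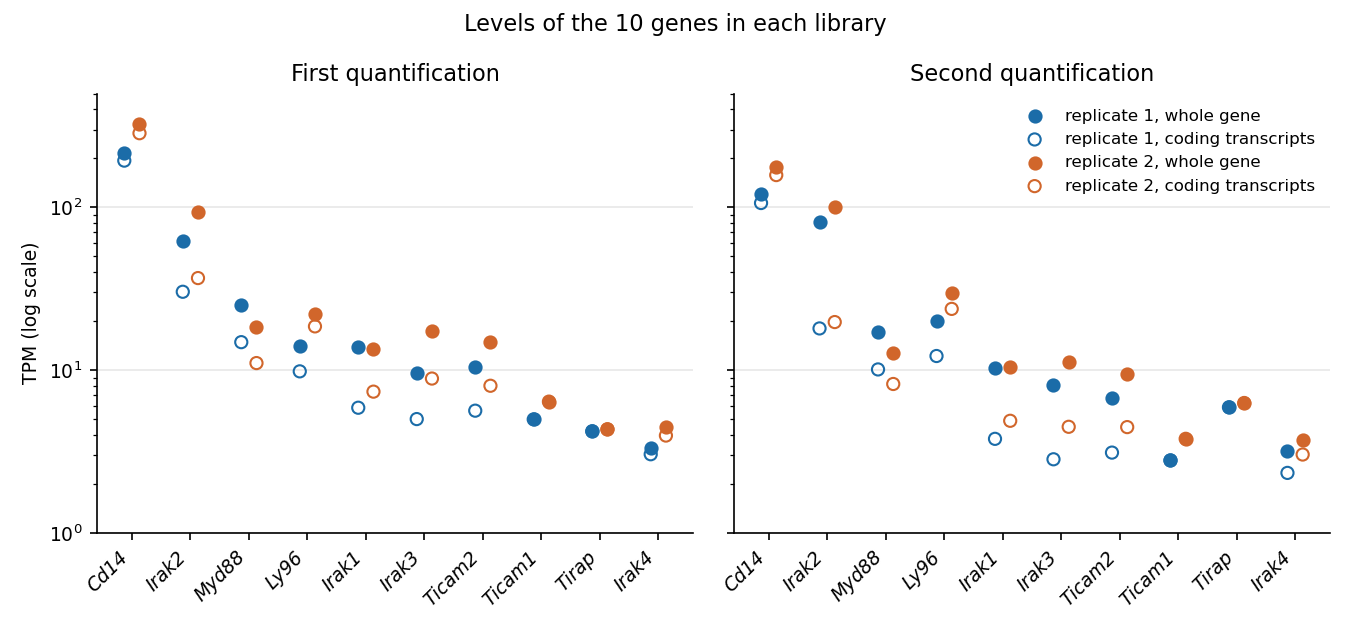
TPM of the 10 genes (log axis) in replicate 1 (blue) and replicate 2 (orange), in the first quantification (left) and the second (right); filled points are whole genes and open points their protein-coding transcripts alone. Cd14 is highest in both libraries and both panels, and the open points of Irak2 lie far below its filled points.

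Cd14 encodes the lipid-binding co-receptor. The gene (ENSMUSG00000051439.7, chr18:36725067-36726798, minus strand, mm10) stood at 215 TPM in replicate 1 and 323 TPM in replicate 2, a mean of 269 ± 76.5 TPM (SD, n = 2). It lay above 98.7% and 99.1% of expressed protein-coding genes. Its deposited TPM interval, whose level is not given in the sources used here, was 204 to 213 in replicate 1 and 295 to 310 in replicate 2, so the TPM itself lay above its own interval in both. In the second quantification Cd14 was at 120 and 178 TPM, still the highest of the 10. Its level was 15.3 and 14.7 times that of Ly96 in the first quantification and 6.03 and 5.98 times in the second. The ratio of the co-receptors was thus alike between libraries within a table and differed between tables.

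Ly96 encodes the small secreted protein that binds lipid A on TLR4. The gene (ENSMUSG00000025779.10, chr1:16688051-16709611, plus strand) stood at 14.03 and 22.05 TPM, a mean of 18.0 ± 5.67 TPM (SD, n = 2). It was the most thinly covered of the 10, with 205 and 162 counts. The second quantification gave it 525 and 561 counts and 19.9 and 29.7 TPM. Ly96, Tirap and Irak2 were the members whose mean TPM was higher in the second quantification, by 1.37, 1.43 and 1.17 times, and the other 7 had 0.553 to 0.887 times their first level there.

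Myd88, the adaptor shared by most Toll-like receptors, was the most abundant adaptor gene in both libraries and both quantifications. The gene (ENSMUSG00000032508.8, chr9:119335934-119341411, minus strand) stood at 25.21 TPM in replicate 1 and 18.31 TPM in replicate 2, a mean of 21.8 ± 4.88 TPM (SD, n = 2). The deposited intervals, 23.4 to 25.99 and 16.0 to 19.1, did not overlap. The lack of overlap was not particular to Myd88, because among the 10 genes only Tirap and Irak1 had intervals that overlapped between the libraries. Those of Irak2, for example, were 57.2 to 65.1 and 81.0 to 95.6. The direction was particular to Myd88. All other genes without overlap were higher in replicate 2, where TPM was higher in general (median log2 ratio 0.38). Myd88 lay above 83.0% of expressed protein-coding genes in replicate 1 and 71.0% in replicate 2. Its level was 5.06 and 2.86 times that of Ticam1, the adaptor of the interferon branch, and 2.98 and 1.72 times on coding transcripts alone.

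The adaptors that bridge the receptor to MYD88 and TICAM1 were lower. Ticam2 (ENSMUSG00000056130.10, chr18:46557291-46574533, minus strand) stood at 10.42 and 14.81 TPM, a mean of 12.6 ± 3.10 TPM. Ticam1 (ENSMUSG00000047123.8, chr17:56269319-56276786, minus strand) stood at 4.98 and 6.40 TPM, a mean of 5.69 ± 1.00 TPM. The bridging adaptor Ticam2 was thus at 2.09 and 2.31 times the TPM of its partner as a whole gene, but at 1.13 and 1.25 times on coding transcripts alone. Tirap (ENSMUSG00000032041.15, chr9:35184551-35200291, minus strand) stood at 4.21 and 4.33 TPM, a mean of 4.27 ± 0.0849 TPM (SD, n = 2 for each adaptor). Its own partner, Myd88, was above it in both libraries. In the second quantification Tirap, at 5.91 and 6.28 TPM, was above Ticam1, at 2.79 and 3.78 TPM, so the order of these adaptors depended on the table.

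Within the IRAK family the ranges of Irak2 and Irak4 stood apart from those of the other members. Irak2 (ENSMUSG00000060477.14, chr6:113638467-113695026, plus strand) stood at 62.37 and 93.06 TPM, a mean of 77.7 ± 21.7 TPM, above 93.7% and 95.1% of expressed protein-coding genes. Irak1 (ENSMUSG00000031392.18, chrX:74013914-74023918, minus strand) stood at 13.93 and 13.52 TPM, a mean of 13.7 ± 0.290 TPM. Irak3 (ENSMUSG00000020227.10, chr10:120141648-120202130, minus strand) stood at 9.56 and 17.34 TPM, a mean of 13.5 ± 5.50 TPM. Irak1 and Irak3 did not differ beyond this spread, and Irak3 was the lower in replicate 1 and the higher in replicate 2. Irak4 (ENSMUSG00000059883.16, chr15:94543643-94581815, plus strand), the kinase that starts the complex, stood at 3.30 and 4.48 TPM, a mean of 3.89 ± 0.834 TPM (SD, n = 2 for each of the 4 genes). Irak2 was at 4.48 and 6.88 times the level of Irak1 and at 18.9 and 20.8 times that of Irak4. These ratios were 7.9 and 9.66 for Irak1 and 25.8 and 26.9 for Irak4 in the second quantification.

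Ordered by mean level, the 10 genes were Cd14, Irak2, Myd88, Ly96, Irak1, Irak3, Ticam2, Ticam1, Tirap and Irak4. Cd14 was first and Irak2 second in both libraries of both quantifications. In the first quantification the ranges of Myd88 and Ly96 overlapped and their order changed between the libraries, while Ly96 was above Myd88 in both libraries of the second. The ranges of Ticam2 and Irak3 overlapped each other, and that of Irak1 lay within both. Ticam1, Tirap and Irak4 lay below these in both libraries and both quantifications, and the ranges of Tirap and Irak4 overlapped.

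Many of the reads of nucleoplasmic RNA can come from transcripts that still hold introns, and the annotation splits each gene's TPM over spliced and unspliced forms. The 10 genes have 57 annotated transcripts. The types used here are protein-coding, retained intron (annotated as keeping intron sequence and given no coding region) and other noncoding, which here includes transcripts marked for nonsense-mediated decay. For 8 genes with a retained-intron transcript, the median share of TPM on that type was 37.2% in replicate 1 and 33.4% in replicate 2. Over 5581 expressed protein-coding genes with such a transcript the median was 35.2% and 34.3%. As a group the 8 genes were therefore near the general level of these libraries, but single members ranged widely. Irak4 had a share above that of 8.6% and 16.3% of those genes, Ticam2 above 67.6% and 66.7%, and Irak1 above 79.6% and 59.5%. The second quantification had 6182 such genes. There Irak4 was above 30.9% and 22.4%, Ticam2 above 69.2% and 66.3%, and Irak1 above 75.7% and 64.5%. Cd14 was the lowest member there, above 11.7% and 13.3%.

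**Figure D2:**
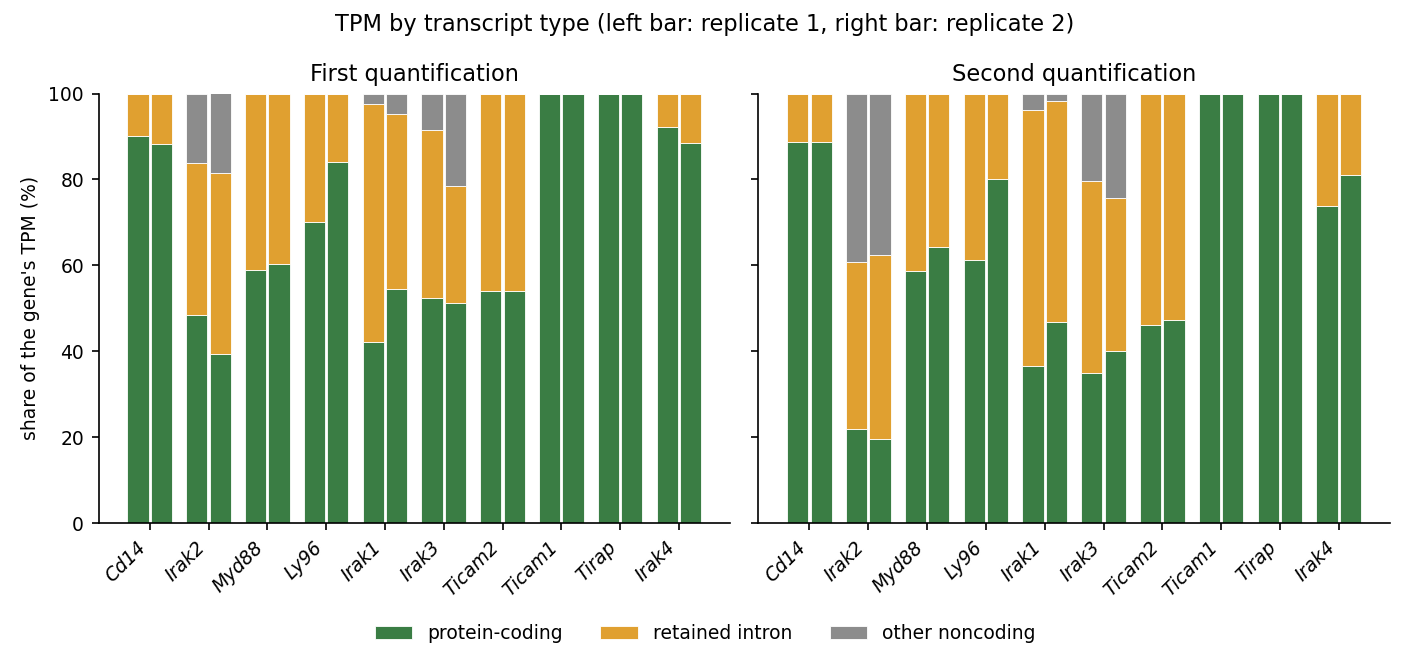
Share of each gene's TPM (%) on protein-coding (green), retained-intron (orange) and other noncoding (grey) transcripts, with replicate 1 as the left bar and replicate 2 as the right bar of each gene, in both quantifications. Cd14 and Irak4 are mostly green, Ticam1 and Tirap wholly so, and Irak2 has the lowest coding share in the second quantification.

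Cd14 had most of its TPM on its spliced coding transcript. Its single intron, 91 bases long, is kept in Cd14-202, which took 10% and 11.8% of the gene's TPM and 4.8% and 5.8% of its counts. The second quantification gave 11.4% and 11.2% of TPM. Ticam2, in contrast, had 46.0% and 45.9% of its TPM on Ticam2-202, a form that keeps 1588 bases of intron 2, and 53.9% and 52.7% in the second quantification. By counts of the first quantification the share of Ticam2-202 was lower, at 27.6% and 27.7%. Ly96 differed between libraries, with 30% and 15.9% on its retained-intron transcript Ly96-203, which rests on 65.0 and 27.5 counts.

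Myd88 divided its RNA between a spliced coding form and 1 form that keeps 2 neighbouring introns whole. Myd88-201, the coding form, stood at 14.84 and 11.04 TPM. Myd88-203, which keeps introns 2 and 3, stood at 10.37 and 7.26 TPM, 41.1% and 39.7% of the gene. The second quantification gave Myd88-203 41.4% and 35.8%. The coding transcript Myd88-202 was listed at 0 in both libraries and both tables. Intron 2 spans 389 bases (chr9:119338187-119338575) and intron 3 spans 160 bases (chr9:119337846-119338005). The 4 borders at which Myd88-203 runs on and Myd88-201 is spliced are shown with exon in lower case and intron in capitals, read 5′ to 3′ on the minus strand (mm10).
Myd88 intron 2 start, chr9:119338561-119338590: ttgatgaccccctagGTAAGGGCCCAGTAC
Myd88 intron 2 end, chr9:119338172-119338201: GTCCCCTGTCCTCAGgacaaacgccggaac
Myd88 intron 3 start, chr9:119337991-119338020: gctaattgagaaaagGTTGGTTAAACATCT
Myd88 intron 3 end, chr9:119337831-119337860: GCCACTCTCCCTCAGgtgtcgccgcatggt
Each intron begins with GT and ends with AG, the bases that mark most mammalian introns. Because the 2 forms share most of their exons, the split between them is an estimate that depends on reads over the 549 intron bases of Myd88-203, 22.3% of its length, and on reads across the spliced junctions of Myd88-201.

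Irak2 differed from Myd88 in that much of its TPM lay on short transcripts that hold few of its exons. As in Cd14, Ticam2, Irak1, Irak3 and Irak4, its coding transcripts held a smaller share of TPM than of counts. The 3 coding transcripts of Irak2 held 30.27 and 36.74 TPM, 48.5% and 39.5% of the gene, although they held 82.6% and 79.3% of its counts. In the second quantification they held 18.02 and 19.72 TPM, 22% and 19.6% of the gene, and 60.7% and 57.1% of its counts. The full-length Irak2-201 alone stood at 25.48 and 31.82 TPM, and at 15.45 and 16.41 in the second table. On coding transcripts alone Irak2 was at 5.16 and 4.99 times Irak1, and at 9.96 and 9.28 times Irak4. The second table gave 4.77 and 4.04 times Irak1 and 7.72 and 6.51 times Irak4. The lead of Irak2 within the family was thus kept when only coding transcripts were counted, and its distance from Irak4 was smaller. Counted this way Ly96, at 23.8 TPM, was above Irak2 in replicate 2 of the second quantification.

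**Figure D3:**
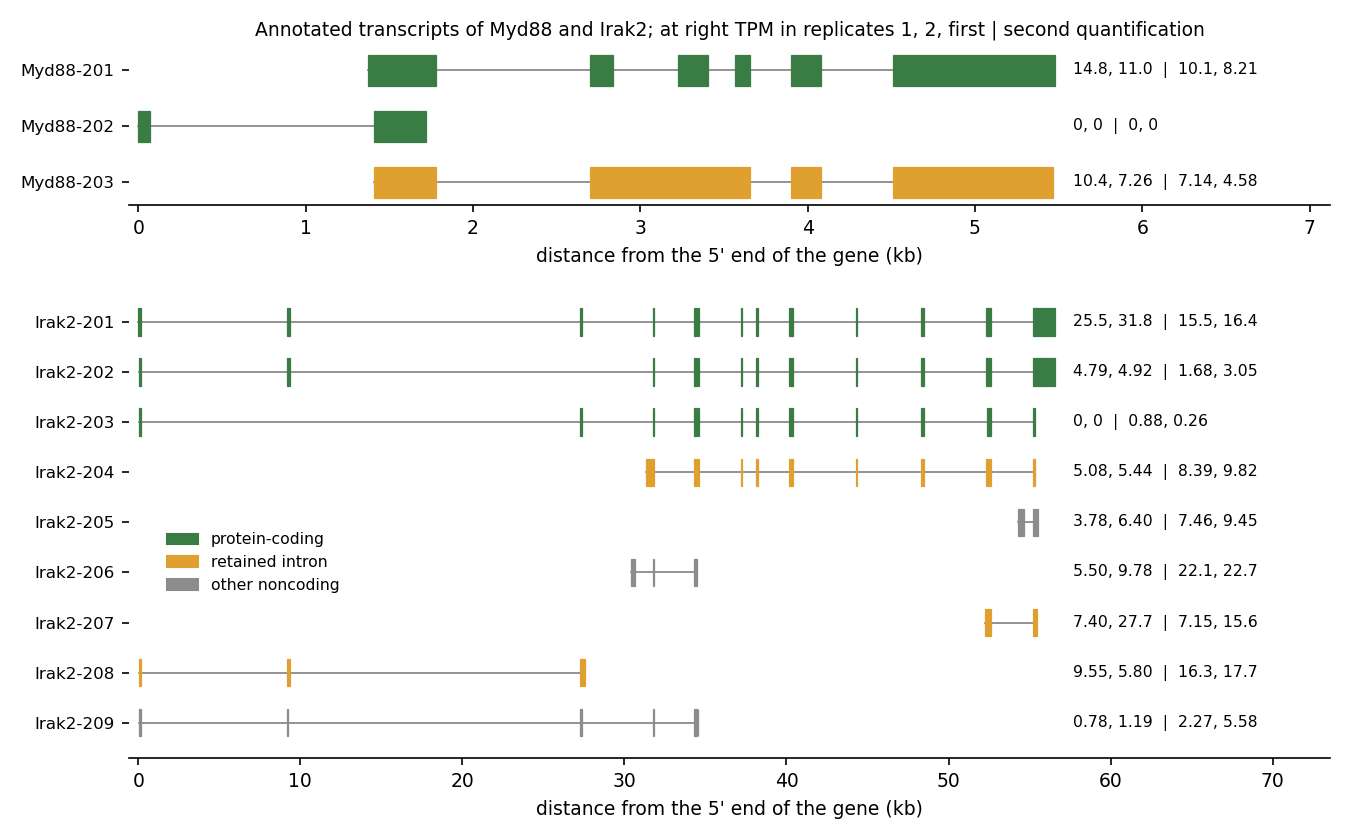
Annotated exons (boxes) and introns (lines) of Myd88 and Irak2 transcripts against the distance from the gene's 5′ end in kb, coloured green for protein-coding, orange for retained intron and grey for other noncoding; the numbers at right are TPM in replicates 1 and 2, first and then second quantification. Irak2-206 and Irak2-207 lie within short stretches of the gene, Irak2-208 has 3 exons in its first part, and together they hold more TPM than Irak2-201 in the second quantification.

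Of the short Irak2 transcripts, 3 took at least 10% of the gene's TPM in both libraries of a table. Irak2-207, 573 bases long with only 38 bases outside coding exons, stood at 7.40 and 27.71 TPM, and at 7.15 and 15.6 TPM in the second table. Irak2-206, 542 bases long, stood at 5.50 and 9.78 TPM in the first table and 22.1 and 22.7 TPM in the second. Irak2-208, 631 bases long with 163 bases of intron 3, stood at 9.55 and 5.80 TPM, and at 16.3 and 17.7 TPM in the second. These forms moved by more between libraries or between tables than Irak2-201 did, and their counts in the first table were 42.0 to 173. The TMM-scaled log2 ratio, replicate 2 over replicate 1, was -1.08 for Irak2-208 and 1.49 for Irak2-207, against -0.12 for Irak2-201.

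The coding transcripts of Irak2 also differ by an exon, shown here because it changes the protein without shifting the reading frame. Irak2-202, chosen after its values were seen, lacks exon 3 of Irak2-201, which has 144 bases or 48 codons. Irak2-202 stood at 4.79 and 4.92 TPM, 15.8% and 13.4% of the sum of both forms, and at 9.8% and 15.7% in the second quantification. The share of the form without exon 3 was thus the minor one in every library and table. The skipped exon (chr6:113665703-113665846, plus strand, mm10) is given whole, followed by the junctions of both forms with the first exon in lower case and the next in capitals.
Irak2 exon 3: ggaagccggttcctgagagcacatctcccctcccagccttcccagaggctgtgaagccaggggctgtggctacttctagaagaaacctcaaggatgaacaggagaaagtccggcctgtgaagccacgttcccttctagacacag
Irak2-201 exon 2 to 3: agattgtcttgagctGGAAGCCGGTTCCTG
Irak2-202 exon 2 to 4: agattgtcttgagctGGCCCATCATGGCTG

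Irak1 had the most divided annotation, with 22 transcripts, 14 of them coding. Coding transcripts held 42.1% and 54.5% of its TPM (70.5% and 80.4% of its counts), and retained-intron transcripts 55.4% and 40.7%. The leading coding forms were Irak1-206, at 3.50 and 3.19 TPM, and Irak1-204, at 1.67 and 3.88 TPM. Their coding parts of 2133 and 2130 bases differ by 3 bases at the start of exon 5, in capitals here (minus strand, mm10, chrX:74022650-74022863 with the intron between left out).
Irak1-206: ccttcctccaccaagCAGtcaagcccagag
Irak1-204: ccttcctccaccaagtcaagcccagag
Irak1-204 took 32.3% of the sum of both forms in replicate 1 and 54.9% in replicate 2, and 50.5% and 77.6% in the second quantification. Its share was the higher in replicate 2 in both tables, but which form led depended on library and table. The deposited TPM intervals of each form overlapped between the libraries. They were 0.46 to 3.24 and 1.46 to 5.62 for Irak1-204, and 1.67 to 4.60 and 0.78 to 4.75 for Irak1-206. The retained-intron transcripts Irak1-218, Irak1-215 and Irak1-220 stood at 2.29 and 1.47, 1.72 and 1.61, and 1.72 and 0.75 TPM.

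Irak3 held 52.3% and 51.2% of its TPM on coding transcripts (78.8% and 76.8% of its counts), led by Irak3-201, at 5.0 and 7.85 TPM. The coding share was 35% and 40% in the second quantification, and Irak3-201 was at 2.33 and 3.53 TPM. Its retained-intron form Irak3-204 stood at 3.74 and 4.72 TPM and the noncoding Irak3-203 at 0.82 and 2.91 TPM. Irak4 was 92.1% and 88.4% coding by TPM, divided between 2 forms that end in different last exons. Irak4-202 stood at 2.29 and 2.67 TPM and Irak4-201 at 0.75 and 1.29 TPM, a share of 24.7% and 32.6% for Irak4-201. In the second quantification that share was 38.9% and 48.9%. The retained-intron form Irak4-203 took 7.9% and 11.6%, and 26.1% and 19.0% in the second table.

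Ticam1 has 1 annotated transcript, and all 7 transcripts of Tirap are coding. Tirap-201, the longest at 4589 bases, took 51.8% and 57.5% of the gene's TPM. Tirap-206, of 604 bases, took 20.0% and 30.7% from 11.1 and 9.00 counts, and Tirap-203 took 17.6% and 11.8%. Tirap therefore had no annotated retained-intron form to which reads over its introns could be given, which also holds for Ticam1.

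Between the libraries, Myd88 stood apart from the other 9 genes. Ratios of single genes used counts scaled by TMM, a library scaling that assumes most genes are alike, and a gene was counted as different past 1.5-fold. Of the 10 genes, 1 was past 1.5-fold, while 19.4% of 13517 genes were (11.1% lower and 8.35% higher in replicate 2). The count among the 10 is therefore not above the background. At 2-fold none of the 10 was past the threshold and 5.54% of all genes were. Myd88 was also the 1 gene of the 10 past 1.5-fold with DESeq2 size factors (19.5% of all genes), without the filter on low counts (32.8%), in centred TPM with a pseudocount of 0.1 (14.6%) or 1 (9.97%), and in centred TPM of the second quantification (18.8%). Myd88 had 1708 counts in replicate 1 and 615 in replicate 2, or 76.3 and 40.8 CPM (counts scaled to library size). It was 1.87-fold lower in replicate 2, a log2 ratio of -0.90 (exact 95% counting interval -1.04 to -0.77, counting error only), and 4.5% of genes were lower still. In bulk RNA, fewer cells with a transcript and less of it per cell cannot be told apart. In the first quantification the spliced form and the form with retained introns were lower by like amounts, with log2 ratios of -0.86 for Myd88-201 and -0.95 for Myd88-203. In the second, Myd88-203 fell by more, from 7.14 to 4.58 TPM, than Myd88-201, from 10.09 to 8.21 TPM.

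**Figure D4:**
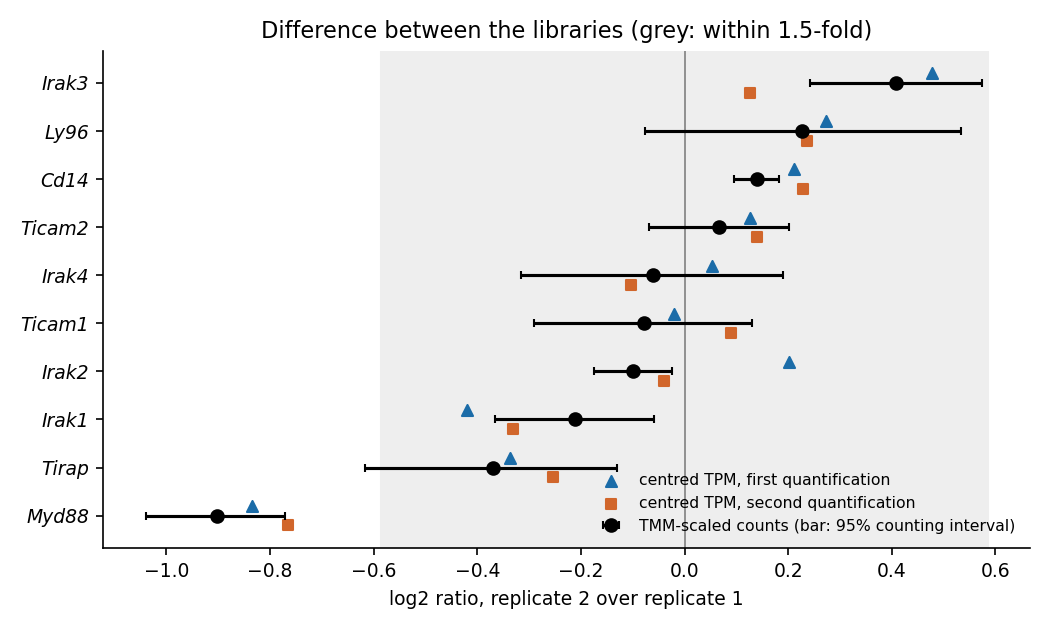
Log2 ratio of each gene, replicate 2 over replicate 1, from TMM-scaled counts (black, bar for the 95% counting interval) and from TPM centred on the median of expressed protein-coding genes in the first (blue triangles) and second (orange squares) quantification; the grey band is within 1.5-fold. Myd88 is the gene whose 3 points lie outside the band.

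The other 9 genes lay within 1.5-fold. Irak3 was the highest, with 637 and 570 counts and a log2 ratio of 0.41 (0.24 to 0.57). Tirap was the next lowest after Myd88, at -0.37 (-0.62 to -0.13), and Irak1 was at -0.21 (-0.37 to -0.06). Like these 3, Cd14, at 0.14 (0.10 to 0.18), and Irak2, at -0.10 (-0.18 to -0.03), had counting intervals that left out 0. These intervals cover counting error only. The differences of Cd14 and Irak2 are small beside the general spread, a biological coefficient of variation of 0.211 over all genes. That value is estimated from the same 2 libraries, and part of it may be technical despite its name. Ly96 (0.23), Ticam2 (0.07), Irak4 (-0.06) and Ticam1 (-0.08) had counting intervals that included 0. The sign of 3 of these ratios depended on the scaling. Irak2 was at 0.20 and Irak4 at 0.05 in centred TPM of the first quantification, and Ticam1 was at 0.09 in that of the second.

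The 227 bases before the first exon of Myd88-201 are shown because Myd88 is the member that differed. They are part of its promoter entry in RefSeq (GRCm38.p6, chr9:119340042-119340268, minus strand), which runs from 250 bases before the start site to 50 after it. Promoter entries were found for 7 of the 10 genes, and Cd14, Ly96 and Ticam2 had none. Capitals mark a match to GAAANNGAAA, the core of the interferon-stimulated response element.
Myd88 promoter: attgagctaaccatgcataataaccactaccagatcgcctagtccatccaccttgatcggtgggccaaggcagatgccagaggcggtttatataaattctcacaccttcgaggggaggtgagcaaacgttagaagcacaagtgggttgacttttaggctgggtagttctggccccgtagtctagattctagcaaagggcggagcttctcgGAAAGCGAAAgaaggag
These letters, searched on both strands, occurred in 1131 of 32851 promoters of the same length, or 3.44%. Of the 7 genes with an entry, Myd88 was the one with a match. The letters GGGNNTTTCC, a form of the kappa-B element bound by NF-kB, were in 1.63% of promoters and in none of those of the 7 genes. A match describes the letters and was not tested for binding. Of 353 protein-coding genes with GAAANNGAAA in a promoter, a group chosen after the values of Myd88 were seen, 74 were past 1.5-fold lower in replicate 2, or 21%, and 14 were past it higher, or 4.0%, with a median log2 ratio of -0.12. Of all 8502 protein-coding genes with a promoter entry and a ratio, 840 were lower by that much, or 9.88%, and 348 higher, or 4.1%, with a median of -0.02. Of 183 with GGGNNTTTCC, 17 were lower, or 9.3%, and 5 higher, with a median of -0.11. Myd88 itself is among the 353 and the 74. Because the group was chosen from the same 2 libraries after its ratio was seen, these shares are a description and no test. The cause of the difference was not tested.

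Several members share exon bases with a neighbouring gene, and whether the counting used strand is not given in the sources used here. On the opposite strand, Acaa1a shares 290 exon bases with Myd88, at 14.73 and 14.09 TPM and a log2 ratio of -0.35. Twf1 shares 395 with Irak4-202, at 10.4 and 15.41 TPM. Tmbim4 shares 192 with the coding transcripts Irak3-201 and Irak3-205, at 26.51 and 27.88 TPM, above Irak3 itself in both libraries. Gm39318 shares 446 with Tirap, at 0.52 and 0.86 TPM, and Srpr shares 39 with Tirap-201, at 9.25 and 12.61 TPM. Gm43963 shares 196 with the coding transcripts of Irak2 and Irak2-204, at 13.29 and 17.82 TPM. On the same strand, Tmed7 shares 838 bases with Ticam2-201, at 7.87 and 11.5 TPM. Levels of these 6 members may include reads of the neighbour, and their part was not tested. Irak1 shares exon bases with the microRNA genes Mir5132 and Mir718, both listed at 0. Cd14, Ly96 and Ticam1 share no exon bases with another annotated gene.

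The 10 genes were set beside 62 other genes of the pathway, grouped by role, with levels of the first quantification. Of the 62, 55 reached 1 TPM in each library and 37 reached 10 TPM, and their median was 19.9 TPM. Among 11 genes for the receptor and its accessory proteins, the median was 12.1 TPM. Tlr4 itself stood at 8.67 and 8.37 TPM, below both co-receptors, and Cd14 was far above it. The highest of that group were Unc93b1, the chaperone of endosomal Toll-like receptors, at 112 ± 8.21 TPM, and Hsp90b1, the chaperone that folds Toll-like receptors, at 106 ± 42.3 TPM (SD, n = 2). Lbp, the serum protein that hands lipid to CD14 and is made mainly in liver, was lowest, at 0.16 and 0.54 TPM. The order of this group depended on the quantification. In the second, Cnpy3 stood at 22.0 and 121 TPM, in replicate 2 above Unc93b1 (85.5) and Hsp90b1 (84.6). Cnpy4 was lowest there, at 0.58 and 0.68 TPM, below Lbp at 0.95 and 1.14 TPM.

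**Figure D5:**
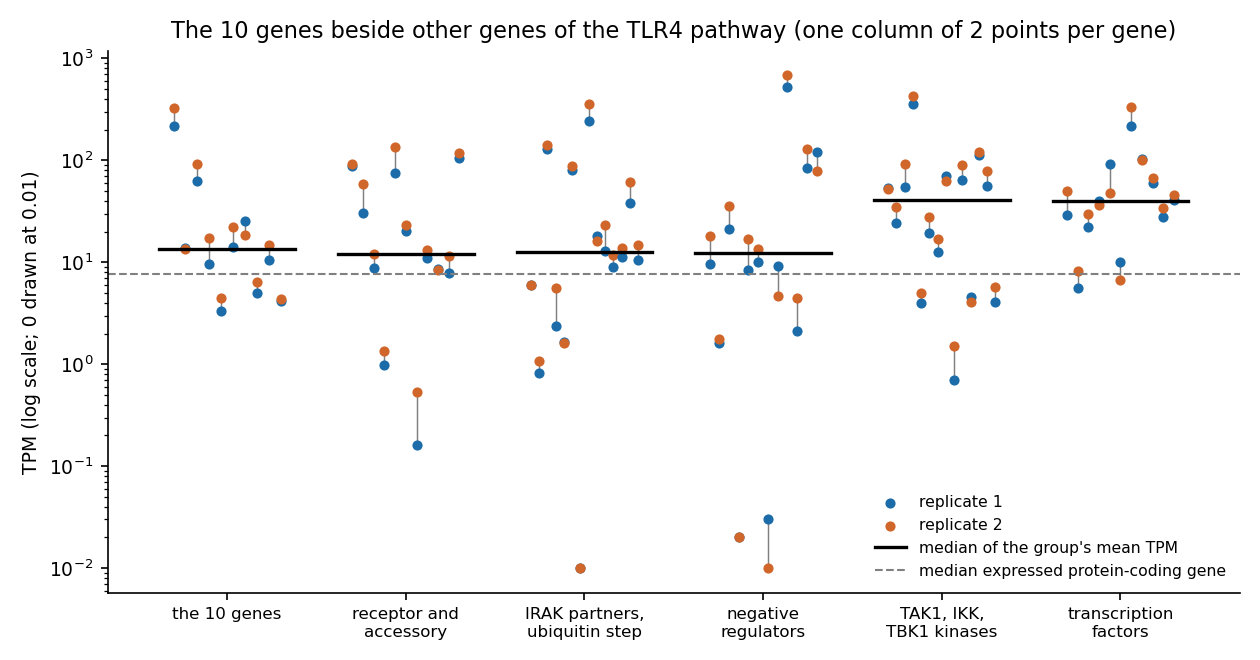
TPM (log axis) of the 10 genes and of 62 other pathway genes in 5 groups, with replicate 1 in blue and replicate 2 in orange joined by a line for each gene; black bars are group medians of mean TPM and the dashed line is the median expressed protein-coding gene, 7.74 TPM. The kinase and transcription factor groups have medians of 41.1 and 39.6 TPM, above those of the other groups, which lie between 12.1 and 13.59 TPM.

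The 14 partners of the receptor complex and the IRAKs, which include the ubiquitin ligases of this step, had a median of 12.6 TPM. They were led by the tyrosine kinase gene Syk (303 ± 81.9 TPM) and by Peli1, a ubiquitin ligase of the IRAKs (134 ± 8.92 TPM), and Sarm1 was lowest (0.01 and 0 TPM). The 12 negative regulators had a median of 12.2 TPM, led by Tnfaip3, which edits ubiquitin chains (605 ± 107 TPM), and its partner Tnip1 (106 ± 31.4 TPM), with Sigirr lowest (0.03 and 0 TPM). The brake Irak3, at 13.5 TPM, was far below Tnfaip3. The 14 genes of TAK1, IKK and TBK1 kinases and their subunits had a median of 41.1 TPM, led by Ikbke (392 ± 46.3 TPM) and Tank (117 ± 5.86 TPM), with Tab1 lowest (0.70 and 1.51 TPM). The 11 transcription factors had a median of 39.6 TPM, led by Nfkb1 (275 ± 81.9 TPM) and Nfkb2 (101 ± 1.67 TPM), with Fos lowest (5.55 and 8.20 TPM). The median of the 10 genes was thus close to those of the receptor, partner and negative regulator groups.

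Of 58 of these pathway genes that passed the filter on low counts, 5 were past 1.5-fold lower in replicate 2 and 0 higher, against 11.1% lower and 8.35% higher over all genes, so the number lower was not above the background. The 5, named after their values were seen, were Irf7 (log2 ratio -1.44), Socs1 (-1.40), Jun (-1.02), Trafd1 (-1.0) and Tifa (-0.60). Replicate 2 is the library made from 500 ng of RNA, and the starting amount cannot be told apart from any other difference between the libraries.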

How the data were processed

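The authors deposited 3 tables for each of 2 libraries: genes and transcripts of a first quantification, and transcripts of a second. Per the file headers, the first used an alignment to the mm10 transcriptome (GENCODE M21), and the second started from 10 read files per library. Aligner, quantifiers and strand setting: not given in the sources used here. Expected counts, as deposited, are estimated read numbers that need not be whole, and they were rounded for scaling. The deposited TPM and FPKM values are corrected for length, TPM to a fixed total over all features. Interval bounds of TPM (unit signal) were deposited by the authors and are printed as such. Gene types, exons and coordinates came from GENCODE M21, and promoters from RefSeq (GRCm38.p6).

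Levels are deposited TPM. An expressed gene is protein-coding with 1 TPM or more in both libraries. Ratios used genes passing filterByExpr, TMM scaling and a prior count of 2 (edgeR 4.0.16, R 4.3.3), tried on simulated data. DESeq2 1.42.0 size factors, other thresholds, TPM with pseudocounts of 0.1 and 1, and the second quantification were alternatives. Tables and figures used Python 3.11.15, pandas 2.3.3, scipy 1.17.1 and matplotlib 3.10.9. Counting intervals are exact 95% binomial intervals of the split of counts and cover counting error only. With 1 group no test between conditions was possible.

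All 10 genes are described. A transcript is named where it took at least 10% of its gene's TPM in both libraries of either table. Of each other pathway group, Tlr4, the 2 highest genes and the lowest by mean TPM are named. Cnpy3 and Cnpy4 are named for their levels in the second quantification, after these were seen. The genes and lists were chosen with earlier results of these data known.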

Additional observations from a re-analysis of the deposited data

How the results depend on the processing

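All 10 genes stayed at 1 TPM or more in both libraries in the second quantification. FPKM and rescaling to protein-coding genes raised the level of every member in both libraries, so they could not lower this number. The median level, 13.59 TPM, was 10.01 TPM in the second quantification, 17.96 in FPKM and 45.92 TPM after rescaling, and 12.18 to 16.07 TPM with 1 library left out. The number of genes past 1.5-fold between the libraries, 1, was the same with DESeq2 size factors, without the filter on low counts and in 3 versions of centred TPM, and it was 0 at 2-fold, a threshold passed by 5.54% of genes. The log2 ratio of Myd88 was -0.90 with DESeq2 size factors, -0.91 without the filter, -0.84 and -0.76 in centred TPM with pseudocounts of 0.1 and 1, and -0.77 in the second quantification. Irak2 (0.20 and 0.25) and Irak4 (0.05 and 0.03) changed sign in centred TPM of the first quantification and Ticam1 (0.09) in that of the second, where Irak3 was at 0.13. Shares of TPM by transcript type or on a gene's leading transcript moved by more than 1 SD in 15 of 28 cases in the second quantification. They did so in 22 of 28 when taken from counts. Some of these shares are equal to, or the complement of, another of the same gene, so the cases are not separate. The cause of these shifts was not tested. Ratios need both libraries, so leaving 1 out gives no value for them. No paired analysis was possible because there is 1 group. Depth limits thinly covered genes such as Ly96, Irak4 and Tirap, and the short transcripts.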

Other observations

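The share of Irak1-204 within its pair of coding forms was higher in replicate 2 than in replicate 1 in both tables, and so was the share of Irak4-201 within its pair. Both tables come from the same 2 libraries, and the deposited TPM interval of each of these forms overlapped between the libraries. The share of Irak2-202 was lower in replicate 2 in the first table and higher in the second.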
